A study of Mus musculus with 12 samples.

Results

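The genes that detect lipopolysaccharide (LPS) and pass the signal on to type I interferon were examined in liver immune cells of wild-type and caspase-11-deficient mice on 2 diets. The genes were taken by name from the gene column of the deposited files, and all 10 of 10 were found among the 40840 genes listed. In the order of their roles they were Lbp, Cd14, Ly96 and Tlr4 for the binding of LPS, Myd88, Ticam1 and Ticam2 for the adaptors, Irf3 for the transcription factor, and Ifnar1 and Ifnar2 for the interferon receptor.

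As background, LPS is the outer-membrane glycolipid of Gram-negative bacteria, and the liver meets it in blood from the gut. LPS-binding protein hands it to CD14, which passes it to TLR4 bound to MD-2, the product of Ly96. At the cell surface TLR4 signals through MyD88 towards NF-κB. From endosomes it signals through TRAM (Ticam2) and TRIF (Ticam1) to IRF3, which switches on interferon-β. Interferon-β acts back on cells through the receptor chains IFNAR1 and IFNAR2, and this loop is known to raise the transcription of Casp4, the mouse gene of caspase-11, which itself senses LPS in the cytosol.

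RNA came from male mice of 2 genotypes, wild-type (WT) mice labelled C57BL/6 (C57BL/6J in the study's methods) and caspase-11-deficient (Casp11-/-) mice of the strain B6.129S4(D2)-Casp4tm1Yuan/J, in which the gene is disrupted in every cell. Adult mice of each genotype had been fed for several weeks with a normal chow diet (NCD) or a high-fat diet (HFD), so that there were 4 groups (WT mice on chow are called WT-NCD, for example) of 3 mice each and 12 libraries in all. The cells were the immune fraction of digested liver, separated from hepatocytes on Percoll and not sorted further, although the labels call them hepatic macrophages. Values are TPM, a level of transcript abundance that divides reads by gene length and by the size of the library, so that levels of different genes can be compared. The libraries were not made from sorted cells, so for every gene below, fewer cells of a type and less RNA per cell cannot be told apart.

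The libraries differed in ways that touch every result. In WT-NCD replicate 3, 39677 genes lay above the lowest value of the files (a floor just above 1 TPM), against 12940 to 18775 genes in the other 11 libraries. Its correlation with each of the others across genes was -0.266 to -0.0681, against 0.846 to 0.986 among the others, and its highest value was 1635 TPM, against at least 153305 TPM in the others. Whether these values are the TPM of that library could not be settled from the files, so results are given with and without it. Protein-coding genes held 14.5% of the TPM of that library, 22.3% to 42.4% in the other NCD libraries and 15.7% to 25.2% in the HFD libraries. For this reason the genes were also compared after each library had been scaled to the same total over protein-coding genes, which is called the protein-coding scale. Every HFD library had a lower share than WT-NCD replicates 1 and 2 and Casp11-/- NCD replicates 1 and 3. The scaling thus raised HFD values relative to those libraries. All 10 Kupffer cell markers were above the lowest value in at least some libraries and 8 to 10 of 10 in each. Hepatocyte markers were also present, at a summed 7060 to 26445 TPM in the 11 libraries and 90.1 TPM in WT-NCD replicate 3. Casp4 itself was at 12.1, 15.6 and 8.94 TPM in WT-NCD, at 7.09, 5.60 and 11.4 TPM in WT-HFD, at 4.93, 2.56 and 15.2 TPM in Casp11-/- NCD and at 2.78, 8.68 and 4.73 TPM in Casp11-/- HFD. Reads of a disrupted gene can remain outside the deleted part and the files do not resolve exons, so these overlapping values are no check of the genotype.

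All 120 values of the 10 genes lay above the lowest value of the files, so every gene passed the filter and entered each test. Without WT-NCD replicate 3, the median level was highest for Cd14 at 28.9 TPM and lowest for Ticam2 at 2.74 TPM. Between them lay Myd88 at 18.4, Lbp at 13.4, Ifnar2 at 12.8, Ifnar1 at 12.8, Irf3 at 12.2, Ly96 at 10.2, Tlr4 at 7.19 and Ticam1 at 5.59 TPM. The ranges of all neighbours in this order overlapped. The range over the 11 libraries was narrowest for Lbp, whose highest value was 3.97 times its lowest, and widest for Cd14, at 15.4 times.

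**Figure D1:**
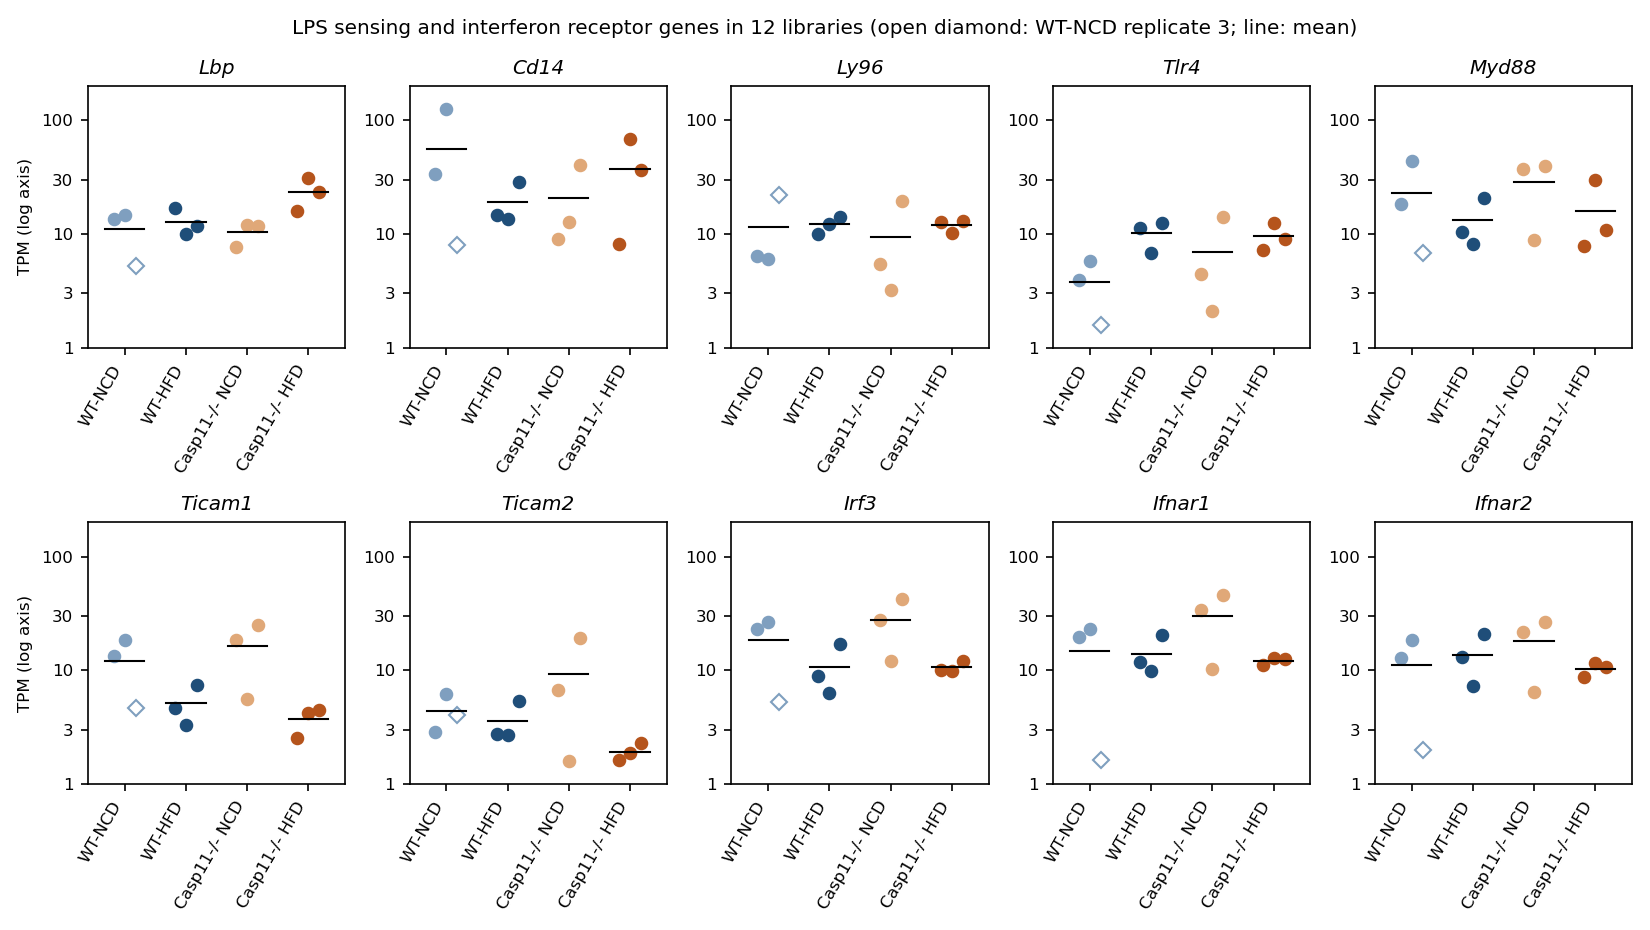
Level of each of the 10 genes in TPM (log axis) in the 12 libraries by group. Points are libraries, lines are group means, and the open diamond is WT-NCD replicate 3, which is the lowest library for Ifnar1 (1.64 TPM) and Ifnar2 (1.99 TPM) and the highest for Ly96 (22.1 TPM).

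Of the genes that bind LPS, Tlr4 and Lbp were higher on HFD and passed the test on the protein-coding scale, Ly96 passed it only there without WT-NCD replicate 3, and Cd14 passed it in no comparison. In the TPM values as deposited, with all 12 libraries, none of the 4 passed the test. Values in each sentence below are in the order of replicates 1, 2 and 3, and differences between groups are log2 differences of TPM + 1 with their standard error (SE).

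Tlr4 (chr4:66827584-66930284, plus strand, GRCm38) encodes the signalling receptor for LPS. Its level was 3.94, 5.73 and 1.58 TPM in WT-NCD and 11.4, 6.75 and 12.5 TPM in WT-HFD. The Casp11-/- libraries held 4.46, 2.12 and 14.1 TPM on NCD and 7.19, 12.4 and 9.06 TPM on HFD. The WT groups did not overlap, being higher on HFD as for 1.98% of all genes, whereas in Casp11-/- mice NCD replicate 3 was above every HFD library. Averaged over genotypes, Tlr4 was 1.0 ± 0.43 (log2, SE) higher on HFD in TPM, with an adjusted p of 0.27 by limma, and 0.81 ± 0.40 higher without WT-NCD replicate 3, with an adjusted p of 0.14. The diets separated fully after scaling to protein-coding genes. On this scale the level was 2.94 to 8.85 (4.10 ± 2.38, SD, n = 6) in the NCD libraries and 9.91 to 14.1 (11.9 ± 1.60, SD, n = 6) in the HFD libraries, and all 6 HFD values exceeded all 6 NCD values. The difference on that scale was 1.43 ± 0.25 (adjusted p = 0.0116). Leaving out WT-NCD replicate 3 gave 1.39 ± 0.26 (adjusted p = 0.00744). Within genotypes and on the same scale, it was 1.62 ± 0.35 in WT (adjusted p = 0.0964) and 1.23 ± 0.35 in Casp11-/- mice (adjusted p = 0.162), neither of which passed the test.

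Ly96 (chr1:16688051-16709611, plus strand) encodes MD-2, the subunit of the TLR4 complex that holds the lipid of LPS. It was at 6.39, 6.04 and 22.1 TPM in WT-NCD and at 9.97, 12.3 and 14.2 TPM in WT-HFD. In Casp11-/- mice its level was 5.47, 3.21 and 19.6 TPM on NCD and 12.7, 10.2 and 13.1 TPM on HFD. In each genotype NCD replicate 3 was the highest library and the other two NCD libraries were the lowest. The difference between diets was 0.47 ± 0.44 (adjusted p = 0.564) in TPM and 0.87 ± 0.47 (adjusted p = 0.312) on the protein-coding scale. When WT-NCD replicate 3 was left out, it came to 0.75 ± 0.39 in TPM (adjusted p = 0.157) and to 1.35 ± 0.29 on the protein-coding scale, where it passed the test (adjusted p = 0.0121). The call for Ly96 therefore rested on leaving out that library, in a fit that called 13.7% of the protein-coding genes tested. Over the 11 libraries, the levels of Ly96 and Tlr4 had a Pearson r of 0.878, the closest relation of either gene to any of the 10.

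Lbp (chr2:158306493-158332852, plus strand) encodes the plasma protein that extracts LPS from bacterial membranes, and hepatocytes are its main source. It was at 13.4, 14.6 and 5.27 TPM in WT-NCD and at 16.8, 9.90 and 11.7 TPM in WT-HFD, which overlapped. The Casp11-/- mice had 7.76, 11.9 and 11.8 TPM on NCD and 16.0, 30.8 and 23.5 TPM on HFD. Every HFD library was thus above every NCD library, as for 2.08% of all genes. This difference of 1.07 ± 0.45 did not pass the test in TPM (adjusted p = 0.538). On the protein-coding scale it was 1.60 ± 0.35 with all libraries (adjusted p = 0.0857). It was 1.60 ± 0.32 once WT-NCD replicate 3 was left out (adjusted p = 0.0271), and Lbp was then the only one of the 10 genes called within a genotype. In WT mice the groups did not overlap on this scale either, at 9.79 to 10.5 on NCD and 12.3 to 18.2 on HFD. Such a separation, higher on HFD, was seen for 9.75% of all genes, and the difference of Lbp was 0.57 ± 0.35 (adjusted p = 0.458). The genotypes were not shown to differ, since the interaction of diet and genotype was 1.03 ± 0.50 (adjusted p = 0.854). Averaged over genotypes, Lbp was 0.67 ± 0.32 higher on HFD in TPM (adjusted p = 0.321) and 1.08 ± 0.25 higher on the protein-coding scale (adjusted p = 0.0337).

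Cd14 (chr18:36725067-36726798, minus strand) encodes the co-receptor that loads LPS onto TLR4 and MD-2, and it is carried by monocytes, macrophages and neutrophils. Its level was 33.7, 126 and 8.01 TPM in WT-NCD and 14.6, 13.6 and 28.9 TPM in WT-HFD. In Casp11-/- mice it was 9.04, 12.8 and 40.7 TPM on NCD and 8.18, 67.8 and 36.6 TPM on HFD. Single libraries stood far above their groups, and the groups overlapped in each genotype. In WT the overlap came only from WT-NCD replicate 3, without which 40.3% of all genes, Cd14 among them, were fully lower on HFD in TPM. The diet difference was -0.85 ± 1.0 in WT (adjusted p = 0.649), and -1.81 there without WT-NCD replicate 3, which did not pass the test either. With all libraries it was 0.68 ± 1.0 in Casp11-/- mice (adjusted p = 0.852), and its average over genotypes was -0.09 ± 0.70. After scaling to protein-coding genes this average was 0.34 ± 0.52, so no direction can be given. The largest interaction among the 10 genes was that of Cd14, at 1.53 ± 1.41 (adjusted p = 0.78), which became 2.49 ± 0.98 when WT-NCD replicate 3 was left out (adjusted p = 1). Casp11-/- HFD replicate 2, the highest HFD library for Cd14, also had the highest sum of 10 neutrophil markers, 4281 TPM, and the other 11 libraries had at most 992 TPM. The part of these cells in the Cd14 values was not tested.

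Among the adaptors, Ticam1 was lower on HFD and passed the test on the protein-coding scale and in TPM without WT-NCD replicate 3. Myd88 and Ticam2 passed the test under none of these settings.

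Ticam1 (chr17:56269319-56276786, minus strand) encodes TRIF, the adaptor through which TLR4 activates IRF3. Its level was 13.3, 18.6 and 4.70 TPM in WT-NCD and 4.65, 3.34 and 7.45 TPM in WT-HFD. Its levels in Casp11-/- mice were 18.6, 5.59 and 25.2 TPM on NCD and 2.57, 4.22 and 4.49 TPM on HFD. All 3 Casp11-/- HFD libraries were below all 3 Casp11-/- NCD libraries, as for 15.1% of all genes. In WT the groups overlapped only through WT-NCD replicate 3, and without it 40.3% of all genes were likewise fully lower on HFD. Averaged over genotypes, the difference was -1.33 ± 0.43 in TPM (adjusted p = 0.202) and passed the test without WT-NCD replicate 3, at -1.59 ± 0.39 (adjusted p = 0.012). That fit called 18.3% of all genes, and 3097 of these 3289 calls were lower on HFD. Leaving out Casp11-/- NCD replicate 2 instead, its lowest NCD library but one, gave -1.63 (adjusted p = 0.0395), in a fit that called 7.48% of all genes. It was also the 1 member called in TPM among genes above the lowest value in every library, beside 6.18% of those genes. It passed on the protein-coding scale as well, at -0.94 ± 0.23 with all libraries (adjusted p = 0.0433) and -1.0 ± 0.24 when WT-NCD replicate 3 was left out (adjusted p = 0.0186). Those fits called 3.56% and 13.7% of the protein-coding genes tested. The mean on that scale was 11.3 ± 3.37 (SD, n = 6) on NCD and 5.34 ± 1.41 (SD, n = 6) on HFD.

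Ticam2 (chr18:46557291-46574533, minus strand) encodes TRAM, which links TLR4 to TRIF at the endosome. It was at 2.85, 6.26 and 4.08 TPM in WT-NCD and at 2.74, 2.69 and 5.44 TPM in WT-HFD. In Casp11-/- mice it was at 6.74, 1.59 and 19.3 TPM on NCD and at 1.63, 1.89 and 2.29 TPM on HFD. Casp11-/- NCD replicate 2 was the lowest of all 12 libraries and replicate 3 of the same group the highest, so the spread within that group covered the whole range. The average diet difference was -0.78 ± 0.47 in TPM (adjusted p = 0.42) and -0.43 ± 0.34 on the protein-coding scale (adjusted p = 0.517). On HFD, the 3 Casp11-/- libraries were below the 3 WT libraries, as for 2.87% of all genes. The difference of 0.61 ± 0.66 on the log2 scale did not pass the test (adjusted p = 1). Ticam2 overlaps Tmed7 on the same strand, a gene at 29.2 to 78.6 TPM in the 11 libraries, and reads of such genes can be shared.

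Myd88 (chr9:119335934-119341411, minus strand) encodes the adaptor of TLR4 and of most other Toll-like receptors. It was at 18.4, 43.8 and 6.87 TPM in WT-NCD and at 10.5, 8.09 and 20.9 TPM in WT-HFD. Levels in Casp11-/- mice were 37.6, 8.94 and 39.7 TPM on NCD and 7.83, 29.6 and 10.7 TPM on HFD. The diets overlapped in both genotypes. The average difference was -0.65 ± 0.55 (adjusted p = 0.564) in TPM and -0.22 ± 0.36 (adjusted p = 0.795) on the protein-coding scale, neither of which passed the test. Myd88 overlaps Slc22a14 on the same strand, which was at the lowest value in all 11 libraries other than WT-NCD replicate 3, and Acaa1a on the opposite strand, at 4.64 to 22.4 TPM in the same 11 libraries.

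Irf3 (chr7:44997648-45002848, plus strand) encodes the transcription factor that TRIF signalling activates, chiefly by phosphorylation of the protein rather than through its RNA level. Its level was 23.3, 26.9 and 5.26 TPM in WT-NCD and 8.92, 6.36 and 17.2 TPM in WT-HFD. In Casp11-/- mice it was 28.0, 12.2 and 42.4 TPM on NCD and 10.03, 9.85 and 12.2 TPM on HFD. The 2 values of 12.2 were 12.17 TPM in Casp11-/- NCD replicate 2 and 12.19 TPM in Casp11-/- HFD replicate 3, so these groups met at their edges. The average difference was -0.84 ± 0.45 in TPM (adjusted p = 0.368). It passed the test when WT-NCD replicate 3 was left out, at -1.19 ± 0.37 (adjusted p = 0.0332), beside 18.3% of all genes. On the protein-coding scale it was -0.42 ± 0.26 (adjusted p = 0.393), and -0.56 ± 0.22 without that library (adjusted p = 0.0976), so the call for Irf3 held only in TPM and only in 11 libraries. Irf3 overlaps Bcl2l12 on the opposite strand, at 1.19 to 15.9 TPM in the 11 libraries.

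Neither chain of the interferon receptor passed the test in any of the 4 settings. Ifnar1 (chr16:91485238-91507441, plus strand) was at 19.8, 23.2 and 1.64 TPM in WT-NCD and at 11.8, 9.94 and 20.6 TPM in WT-HFD. The Casp11-/- mice had 33.8, 10.3 and 46.1 TPM on NCD and 11.3, 12.8 and 12.7 TPM on HFD. The NCD libraries of Casp11-/- mice spanned a wide range, with one of them below all 3 HFD libraries, whose own values lay close together at 12.2 ± 0.848 TPM (SD, n = 3). The average diet difference was -0.30 ± 0.57 in TPM (adjusted p = 0.705) and 0.16 ± 0.36 on the protein-coding scale (adjusted p = 0.86), so its direction turned with the scale.

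Ifnar2 (chr16:91372783-91405589, plus strand), the neighbouring gene and the chain that binds interferon most tightly, was at 12.8, 18.4 and 1.99 TPM in WT-NCD and at 13.3, 7.31 and 20.9 TPM in WT-HFD. Casp11-/- libraries stood at 21.8, 6.41 and 26.4 TPM on NCD and 8.76, 11.7 and 10.7 TPM on HFD. The average diet difference was 0.00 ± 0.52 in TPM (adjusted p = 0.999), and without WT-NCD replicate 3 it was -0.41 ± 0.39 (adjusted p = 0.416). WT-NCD replicate 3, the lowest library of both chains, thus set the sign for Ifnar2 in TPM, and for Ifnar1 it did so on the protein-coding scale, where leaving it out gave -0.19. Levels of Ifnar1 and Ifnar2 had a Pearson r of 0.912 over the 11 libraries.

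RefSeq promoter sequences were examined for 5 of the 10 genes, namely Myd88, Ticam1, Irf3, Ifnar1 and Ifnar2. They were windows of 300 bases that span the start of transcription on GRCm38.p6. No statement is made on the promoters of the other members. Ticam1 and Irf3 are shown because they were the 2 genes called lower in TPM without WT-NCD replicate 3, and Myd88 because it alone of the 5 holds the core of the interferon-stimulated response element. Letters in capitals mark motif matches, of the ISRE core GAAANNGAA, the GAS element TTCNNNGAA, the NF-κB site GGACTTTCC, the ETS site GGAAGTG or the CREB site TGACGTCA, each searched on both strands. Ticam1 lies at chr17:56276718-56277017 on the minus strand, Irf3 at chr7:44997398-44997697 on the plus strand and Myd88 at chr9:119339969-119340268 on the minus strand.
Ticam1: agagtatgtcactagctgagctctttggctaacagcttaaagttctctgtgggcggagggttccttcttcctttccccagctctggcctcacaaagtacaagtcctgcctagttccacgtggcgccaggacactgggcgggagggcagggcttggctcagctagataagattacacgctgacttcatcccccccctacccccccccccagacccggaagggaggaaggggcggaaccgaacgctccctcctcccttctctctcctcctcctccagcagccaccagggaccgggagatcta
Irf3: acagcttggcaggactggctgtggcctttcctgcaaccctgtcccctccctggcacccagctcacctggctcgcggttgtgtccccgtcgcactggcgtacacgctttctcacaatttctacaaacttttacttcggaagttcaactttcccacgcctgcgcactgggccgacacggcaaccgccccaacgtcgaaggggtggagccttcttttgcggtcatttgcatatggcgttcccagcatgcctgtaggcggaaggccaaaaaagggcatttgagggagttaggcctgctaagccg
Myd88: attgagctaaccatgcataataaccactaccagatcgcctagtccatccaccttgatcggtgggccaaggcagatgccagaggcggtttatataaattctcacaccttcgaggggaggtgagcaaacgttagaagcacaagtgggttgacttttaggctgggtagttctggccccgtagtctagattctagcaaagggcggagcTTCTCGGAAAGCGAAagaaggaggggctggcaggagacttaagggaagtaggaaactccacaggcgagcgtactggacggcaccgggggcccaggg
Neither Ticam1 nor Irf3 held any of the 5 motifs in this window. Myd88 held 1 ISRE core and 1 GAS match, which overlap each other, the GAS match starting 46 bases and the ISRE core 40 bases before the start of transcription. Among the promoters of 21263 protein-coding genes, 8.15% held the ISRE core, 7.69% the GAS element, 0.348% the NF-κB site, 12% the ETS site and 2.23% the CREB site. A GAS match was also present in Ifnar1 and in Ifnar2, and an ETS match in Ifnar1. These matches describe the letters of the window and do not show a binding site.

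The comparison of diets asks whether a high-fat diet goes with a different supply of LPS receptors and adaptors in these cells. With all 12 libraries in TPM, 0 of the 10 genes were called in either genotype or in their average, at adjusted p-values of at least 0.202. The share of all 19498 genes called was 0.113% for diet in WT, 0% for diet in Casp11-/- mice and 0.554% for the average, so a list of 10 genes would hold few calls at these rates. At an unadjusted p under 0.05, 0 genes were counted in WT, 2 in Casp11-/- mice (Lbp higher, Ticam1 lower) and 2 in the average (Tlr4 higher, Ticam1 lower). The shares of all genes at that p were 6.96%, 8.48% and 16.8%, so the members' share in the average was near that of all genes. Without WT-NCD replicate 3, 2 of 10 were called in the average (Ticam1 and Irf3, both lower) beside 18.3% of all genes, again a like share. No member was called within a genotype there, where the shares of all genes were 2.18% in WT and 1.1% in Casp11-/- mice. Most of the calls over all genes in that fit were lower on HFD, 3097 of 3289.

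On the protein-coding scale, where only protein-coding genes were tested, 3 of 10 genes were called in the average (Tlr4 and Lbp higher, Ticam1 lower). This was beside 3.56% of the 12796 genes tested. Within genotypes 0 were called, beside 0.0938% in WT and 0.0469% in Casp11-/- mice. With WT-NCD replicate 3 left out as well, 4 of 10 were called in the average (Tlr4, Ly96 and Lbp higher, Ticam1 lower) beside 13.7% of the 12368 genes tested. Within genotypes that fit called 0 of 10 in WT beside 0.809%, and 1 of 10 (Lbp) in Casp11-/- mice beside 3.55%. Among complete separations of the 6 HFD from the 6 NCD libraries, 0 members were higher and 0 lower in TPM, against 0.231% and 2.41% of all genes. On the protein-coding scale 1 member, Tlr4, was higher and 0 were lower, against 1.46% and 1.74% of the same 19498 genes of all types.

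**Figure D2:**
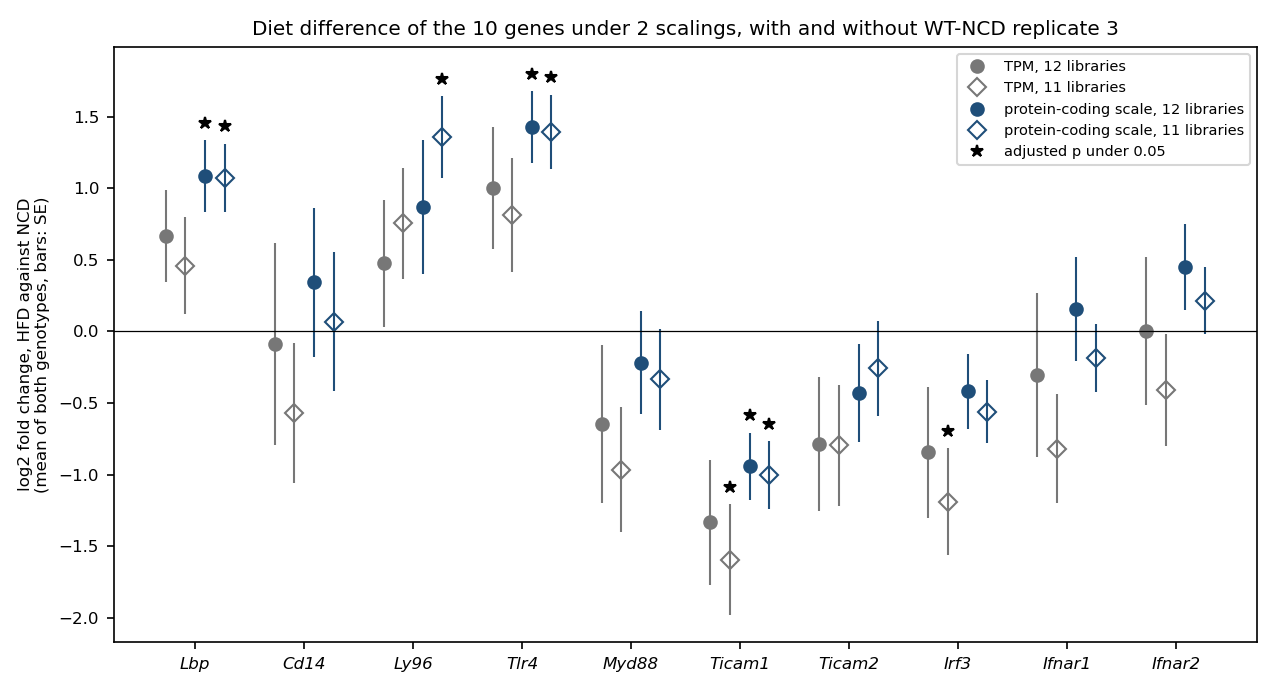
Diet difference (log2, HFD against NCD, mean of both genotypes) of the 10 genes with its standard error, in TPM and on the protein-coding scale, with 12 libraries (filled) and with the 11 other than WT-NCD replicate 3 (open). Stars mark an adjusted p under 0.05 by limma. Tlr4, Ly96 and Lbp lie above 0 and Myd88, Ticam1, Ticam2 and Irf3 below 0 in all 4 fits.

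The scale sets the zero of these differences. The median over all genes tested was -0.61 for the averaged diet difference in TPM. On the protein-coding scale, over protein-coding genes only, it was -0.10. The median over the 10 genes was -0.20 and 0.25 on these scales. When the 1% of genes with the highest mean was removed and the rest rescaled, the 2 medians were 0.11 and 0.63. A measure that the scale touches less is the place of each gene among the genes tested, ordered by their diet difference. The set of genes tested differed between the fits. Over these 3 scales and both TPM and protein-coding fits without WT-NCD replicate 3, Tlr4 stood above 97.4% to 98.4% of the genes tested. Lbp stood above 95.2% to 97.3% and Ly96 above 92.9% to 97.7%. Ticam1 stood above only 2.55% to 2.99%. Relative to the median gene, Tlr4 was 1.20 to 1.68 higher and Ticam1 0.67 to 1.20 lower on the log2 scale in these 5 fits. The place of Cd14 was between 40.2% and 88.0% and that of Ifnar1 between 25.9% and 75.9%, so neither kept to one side of the median. Irf3 stayed in the lower range, at 9.60% to 38.9%, and Ticam2 likewise, at 21.3% to 35.0%. Over all 22 fits of this comparison, the place was 96.6% to 99.1% for Tlr4, 94.1% to 98.3% for Lbp and 90.9% to 97.7% for Ly96. It was 1.35% to 25.6% for Ticam1, 9.60% to 45.2% for Irf3 and 9.63% to 55.1% for Ticam2.

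The sums of some cell markers moved with these values, and those of others did not. The sums for T cells, monocytes and neutrophils overlapped between diets in each genotype. The sum of 10 Kupffer cell markers on the protein-coding scale was 71.9 to 232 in the 6 NCD libraries and 362 to 933 in the 6 HFD libraries, which separated the diets as Tlr4 did. The sum of 7 sinusoidal endothelial markers separated the diets too. It was 56.2 to 379 in WT-NCD and 400 to 804 in WT-HFD, and 69.5 to 311 in Casp11-/- NCD and 615 to 1456 in Casp11-/- HFD. In TPM both sums overlapped between diets. Kupffer cell markers summed to 370 TPM in Casp11-/- NCD replicate 3 and 285 TPM in WT-HFD replicate 2. Sinusoidal endothelial markers summed to 485 TPM in WT-NCD replicate 1 and 237 TPM in WT-HFD replicate 2. On the protein-coding scale, the sum of 11 hepatocyte markers was 4948 to 22580 in Casp11-/- NCD and 21434 to 23902 in Casp11-/- HFD, beside the higher Lbp there. In WT it was 20658, 12564 and 167 in NCD replicates 1, 2 and 3 and 10682 to 22759 on HFD. The diets thus overlapped in WT, where Lbp on this scale did not. The sum of 6 B cell markers was 522 to 1161 in Casp11-/- NCD and 210 to 342 in Casp11-/- HFD, and that of 6 NK cell markers 109 to 249 and 72.7 to 98.5, beside the lower Ticam1. In WT, B cell markers summed to 896 to 1108 in NCD replicates 1 and 2, to 68.9 in NCD replicate 3 and to 231 to 327 on HFD. NK cell markers in WT summed to 203, 255 and 91.0 in NCD replicates 1, 2 and 3 and to 91.9 to 92.9 on HFD. The part of these cells in the diet differences was not tested.

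**Figure D3:**
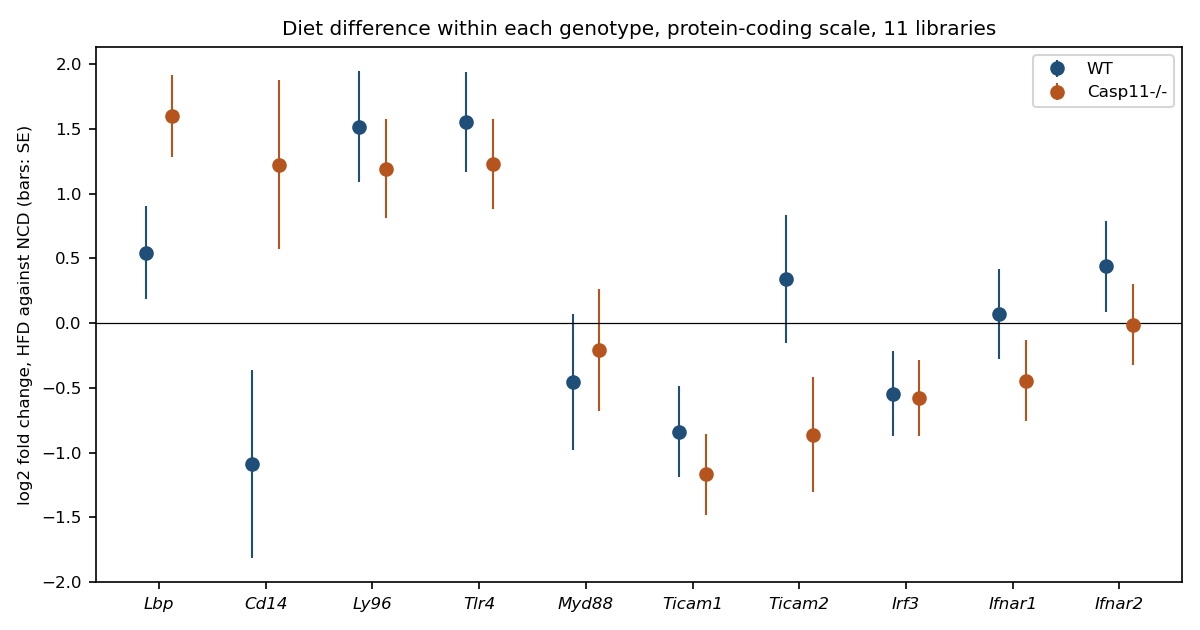
Diet difference (log2, HFD against NCD) of the 10 genes within WT and within Casp11-/- mice on the protein-coding scale in the 11 libraries other than WT-NCD replicate 3, with standard errors. Tlr4, Ly96 and Lbp lie above 0 and Myd88, Ticam1 and Irf3 below 0 in both genotypes. The 2 values of Cd14 are -1.09 and 1.23, and the interaction passed the test for no gene.

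The comparison of genotypes asks whether the supply of these genes differs where caspase-11 is missing. No member was called on NCD, on HFD, in the average over diets or in the interaction. In TPM with all libraries, the adjusted p-values were at least 0.553 on NCD, 1 on HFD, 0.902 in the average and 0.78 for the interaction, and 0 members had an unadjusted p under 0.05 in any of them, beside 1.5%, 0.154%, 0.585% and 0.79% of all genes in that order. Of the genes tested, 0% were called in each of these 4 comparisons in TPM, and 0% on the protein-coding scale with or without WT-NCD replicate 3. Without that library in TPM, 0.0557% were called on NCD, 0% on HFD, 0.00557% in the average and 0.00557% for the interaction. In TPM with all 12 libraries the widest difference on NCD was that of Ifnar1, 1.27 ± 0.81 higher in Casp11-/- mice, and it was 0.24 ± 0.57 without WT-NCD replicate 3. That of Cd14 was wider in the other 3 fits, at -1.89 ± 0.73 in TPM without that library (adjusted p = 1) and at -1.20 and -1.74 on the protein-coding scale with and without it. On HFD, Lbp was 0.81 ± 0.45 higher in Casp11-/- mice. On the protein-coding scale its 3 Casp11-/- HFD libraries, at 22.1 to 34.9, were above the 3 WT-HFD libraries, at 12.3 to 18.2. A separation in this direction was seen for 1.3% of all genes, and the difference of 0.79 ± 0.35 for Lbp did not pass the test (adjusted p = 1). The genotype difference on HFD was small beside its error for the other receptor genes, at -0.08 ± 0.60 for Tlr4 and -0.01 ± 0.62 for Ly96. A difference of 1 on the log2 scale lies within 2 standard errors of these values, so these data do not show that the genotypes were alike.

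The other genes of the pathway were taken from 6 lists with 65 genes in all, of which 63 passed the filter. Ifnb1, which encodes interferon-β itself, and Bpi, a relative of Lbp, were not above the lowest value in enough libraries to be tested. In TPM with all libraries, 0 of 63 were called in any comparison, and for the averaged diet difference 0 were higher and 4 lower at an unadjusted p under 0.05, beside 16.8% of all genes. The median difference of the 63 genes was -0.34, against -0.61 over all genes. The 2 of smallest p in that comparison were Sigirr, an inhibitory receptor of the Toll and interleukin-1 family, at -0.99 ± 0.32, and Socs1, an inhibitor of interferon signalling, at -1.08 ± 0.35, both with an adjusted p of 0.2. Within WT they were Tab1, a partner of the kinase TAK1, at -1.18 ± 0.48, and Sigirr, at -1.05 ± 0.45, both with an adjusted p of 0.513. In Casp11-/- mice the same rule gave Socs1, at -1.26 ± 0.49, and Sigirr, at -0.94 ± 0.45.

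Without WT-NCD replicate 3, 18 of the 63 genes (0 higher, 18 lower) were called in the averaged diet difference, beside 18.3% of all genes, and the median was -0.78 against -0.39. They came from every list. In the adaptor and kinase cascade, 4 of 13 genes were lower, among them Irak2, a kinase recruited by MyD88, at -1.37 ± 0.39 (adjusted p = 0.0252), besides Irak1, Tab1 and Traf3. In the NF-κB list, 4 of 10 were lower, with Rela, the p65 subunit, at -1.29 ± 0.39 (adjusted p = 0.0307), besides Ikbkb, Nfkb2 and Nfkbib. Of the brakes on signalling, 4 of 12 were lower, namely the phosphatase gene Inpp5d, at -1.46 ± 0.42 (adjusted p = 0.0242), Socs1, Sigirr and Irak3. The remaining calls were 2 of 8 interferon regulatory factors and their kinases (Irf8 and Irf5), 1 of 6 genes of interferon receptor signalling (Tyk2, a kinase bound to IFNAR1, at -1.25 ± 0.38, adjusted p = 0.0301), and 3 of 14 genes of LPS transfer and TLR relatives. Of these 3, Itgam, the integrin chain of myeloid cells also known as CD11b, was at -1.75 ± 0.50 (adjusted p = 0.0251), and the others were the TLR chaperones Unc93b1 and Cnpy3.

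On the protein-coding scale 0 of the 63 genes were called with all libraries, beside 3.56% of the protein-coding genes tested. The median of the averaged diet difference was 0.08, against -0.10 over the protein-coding genes tested. Without WT-NCD replicate 3, 1 was called, Pltp, which encodes the phospholipid transfer protein, a relative of LBP, at 1.03 ± 0.28 (adjusted p = 0.0317). This was beside 13.7% of the protein-coding genes tested. The lower levels seen for 18 genes in TPM therefore did not pass the test on this scale. For the genotypes, 0 of 63 were called in the 4 fits. The 2 of smallest p in TPM were Cd180, a TLR4-like receptor of B cells, at 1.59 ± 0.89, and Rel, at 1.74 ± 0.97, on NCD (both higher in Casp11-/- mice, adjusted p = 0.553), and Cd180, at -1.03 ± 0.89, and Ly86, which encodes the partner of CD180, at -0.82 ± 0.76, on HFD. For the average over diets they were Scarb1, at 0.50 ± 0.42, and Hmgb1, at 0.66 ± 0.57, and for the interaction Cd180, at -2.62 ± 1.26, and Tlr1, at -1.83 ± 1.09. Without WT-NCD replicate 3, Dusp1, a phosphatase gene switched on within minutes of stress or LPS, took the first place on NCD, at -1.31 ± 0.65, and for the interaction, at 1.80 ± 0.87 (adjusted p = 1 in each).

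The genes whose levels ran most like each member over the 11 libraries were taken from 10866 protein-coding genes by Pearson's r of log2(TPM + 1), as a description, since points share the make-up and scale of each library. Tlr4 was most like Hmox1, the heme oxygenase gene (r = 0.974), then Ddx60 and Dram2. Cd14 was most like Dusp1 (r = 0.972), then Ptp4a1 and Nfil3. Ly96 ran with Herc6 (r = 0.945), Acer3 and Slc16a7, and Lbp with Gja4 (r = 0.896), Sema6b and Pde7b. Myd88 was closest to Pgd (r = 0.982), Ticam1 to Taf1d (r = 0.994), Ticam2 to Cyp4f16 (r = 0.992), Irf3 to Bet1l (r = 0.993), Ifnar1 to Slc25a12 (r = 0.993) and Ifnar2 to Ammecr1 (r = 0.978). Among the members themselves, the highest values were those of Irf3 with Ticam1 (r = 0.959) and with Ifnar1 (r = 0.945). Cd14 had no value above 0.611 with any other member, and Lbp none above 0.475. In WT-NCD replicate 2, the library with the highest Cd14, Dusp1 was at 446 TPM, its highest value too.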

How the data were processed

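Total RNA of liver immune cells from 12 mice was sequenced from random-primed stranded libraries, whose reads the authors aligned with STAR to mm10 and turned into TPM in Qlucore Omics Explorer. The deposited values were treated as a score on the TPM scale rather than as exact TPM, because low values had been raised to a floor just above 1 and totals per library came to 1000353 to 1022495. No counts of reads are in the files, so the depth behind each value is unknown. How strand was used in counting is not given in the sources used here, and 4 of the 10 genes overlap another gene. The value column of Casp11-/- HFD replicate 2 is headed with a shortened genotype name and was used under its label.

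The test was that of limma 3.58.1 (R 4.3.3), applied to log2(TPM + 1) with 1 mean per group, a spread trended on the mean and shared by all 12 libraries, and genes above the lowest value in at least 3 libraries (19498 genes). Tests were two-sided, and a gene was called at a Benjamini-Hochberg adjusted p under 0.05 over all genes tested. The protein-coding scale used 12796 genes of that type in RefSeq, or 12368 without WT-NCD replicate 3. The fit was also run on simulated data in which 200 genes were changed in WT-HFD. Those data held no outlying library and no shift of scale, so that run does not bear on the calls above. Tables were made with Python 3.11.15 and pandas 2.3.3, and figures with matplotlib 3.10.9. Positions are those of GENCODE vM21 on GRCm38. Replicate numbers of the labels were taken as separate mice, and p-values measure the spread between these samples. The 10 genes, the 6 pathway lists, the marker lists and the alternatives were chosen with earlier results of these data known. All 10 genes were named, together with pathway genes called with all libraries or without WT-NCD replicate 3, the 2 of smallest p where a comparison had none, and the 3 genes most like each member.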

Additional observations from a re-analysis of the deposited data

How the results depend on the processing

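The test was repeated with other filters on low values, pseudocounts of 0.1 and 5, a spread from only the groups compared, a replicate block, 2 other scalings, an ordinary linear model and each library left out in turn. No member was called in any genotype comparison or for the interaction under these alternatives. For diet averaged over genotypes, 1 member (Ticam1) was called among genes above the lowest value in every library (beside 6.18% of those genes). On the protein-coding scale 3 were called, beside 3.56% of the protein-coding genes tested. Without WT-NCD replicate 3 that scale gave 4, beside 13.7%, and 1 for diet in Casp11-/- mice, beside 3.55%. With single libraries left out in TPM, 0 to 2 members were called. These were 2 without WT-NCD replicate 3 (beside 18.3% of all genes, a like share) and 1 without Casp11-/- NCD replicate 2 (beside 7.48%).

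Of 715 repeated log2 differences of single genes, 33 changed sign and none of these was called, and 17 of 33 differences kept their sign throughout. With the most abundant 1% of genes removed, signs turned to 0.81 for Cd14, 0.23 for Myd88, 0.0038 for Irf3 and 0.47 for Ifnar1 in the average, to 0.34 for Cd14, 0.63 for Myd88, 0.063 for Ticam1, 0.78 for Ticam2 and 0.55 for Irf3 in WT, and to 0.032 for Ifnar2 in Casp11-/- mice. The protein-coding scale turned the average to 0.34 for Cd14 and 0.16 for Ifnar1, and without WT-NCD replicate 3 that of Cd14 to 0.069 and Ticam2 in WT to 0.34. A pseudocount of 5 turned the average of Ifnar2 to -0.071. With single libraries left out, the average ranged from -0.57 to 0.39 for Cd14 and from -0.41 to 0.27 for Ifnar2. The difference in WT ranged from -1.81 to 0.098 for Cd14, -0.00039 to 0.86 for Ly96, -0.15 to 0.51 for Lbp, -1.16 to 0.092 for Myd88, -0.49 to 0.013 for Ticam2, -0.64 to 0.96 for Ifnar1 and -0.25 to 1.09 for Ifnar2. The genotype difference of Cd14 on NCD ranged from -1.89 to 0.021. Most of these extremes came from leaving out WT-NCD replicate 2 or 3, and the cause was not tested.

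With the replicate block, 0 members were called in each comparison, and the genes called for averaged diet fell from 108 to 16. Deviations from the group means had an r of -0.642 to 0.470 over 18 pairs of libraries of the same number. Over 36 pairs of different numbers it was -0.645 to 0.662. With 3 libraries per group and WT-NCD replicate 3 among them, these values cannot decide whether the numbers pair the mice. With no read counts, the counting error of low genes such as Ticam2 cannot be given, and the floor of the values shrinks differences of low genes. The 3 libraries per group limit what a test over all genes can call.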
